A study of Homo sapiens with 28 samples.

Results

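H3K27ac peak lists named for TAZ4SA were compared with lists named for the empty vector (EV) in SW872 cells, an established human liposarcoma line. The labels give H3K27ac as the antibody, but their extraction protocol speaks of an antibody to the Flag tag. The study's methods name one to acetylated H3K27, and the lists were taken as H3K27ac. All cells of the series were stably transduced. Per the labels they were collected 48 hours after reaching 90% confluence, apart from those with CAMTA1, which were still sub-confluent. The series has 14 H3K27ac peak lists in 7 groups of 2. Besides the empty vector, the groups are TAZ4SA, YAP5SA, the fusions TAZ-CAMTA1 and YAP-TFE3, and full-length CAMTA1 and TFE3, each carrying a Flag tag per the study's methods. Replicates came from separate transductions per the methods. The limma p-values rest on the spread between such cultures, with each region's variance drawn toward a trend over all tested regions of the same lists.

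Each list has 2 names. The peaks inside it carry a construct and a replicate number, and GEO's labels give the same list another construct. The lists with TAZ4SA in the peak names (replicates 2 and 3) are labelled TAZ_CAMTA1 replicates 1 and 2. The lists with EV in the peak names (replicates 1 and 2) are labelled TAZ4SA replicates 1 and 2. Read by peak names, the comparison is active TAZ against an empty vector. Read by labels, it is the TAZ-CAMTA1 fusion against active TAZ. Both namings divide the 4 lists in the same way, so each value holds under either, but the construct behind it does not. The lists hold no measure of the transduced proteins, and which naming is right was not tested. Lists are called TAZ4SA-named and EV-named below, with the replicate number of the peak names.

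Acetylation of histone H3 at lysine 27 marks active promoters and enhancers, and the enzymes that write it are recruited by transcription factors and their co-activators. TAZ is a transcriptional co-activator held in check by the Hippo kinase pathway, whose phosphorylation keeps it in the cytoplasm and sends it for degradation. TAZ4SA lacks serines that are phosphorylated in this way and therefore stays active, and YAP5SA is the same kind of mutant of its paralog YAP. Both reach DNA through TEAD factors, which sit mostly at enhancers. TAZ-CAMTA1 joins the TEAD-binding end of TAZ to the C terminus of CAMTA1, a transcriptional activator.

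Members were chosen by presence. Each list was cut to its top peaks by −log10 p, as many as the shortest of the 4 lists holds, and peaks that overlapped or touched were merged. This gave 27725 regions. A region was put on a side when both lists of that side held a peak in it and neither list of the other did. The TAZ4SA-named side had 1467 such regions, 5.29% of all regions, and the EV-named side had 3278, or 11.8%. The counts depended on the definition. They were 1078 and 1327 with 10000 top peaks per list, 442 and 24114 with full lists, and 596 and 9224 when peaks had to cover 50% of a region. With intervals of 500 bp both ways from each summit they were 2380 and 3323. A further 11011 regions (39.7%) had a peak in all 4 lists, and 138757 merged regions were found in the 14 full lists of the series. With 2 lists against 2, the smallest p of an exact two-sided permutation test is 1 in 3, and presence was the rule itself, so the sides are described without a test. All coordinates are GRCh37/hg19.

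**Figure D1:**
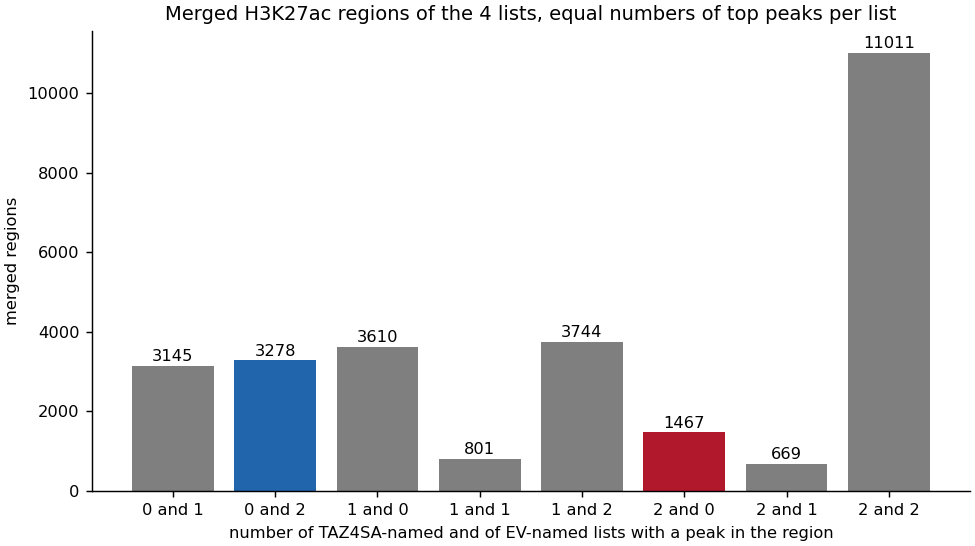
Number of merged regions by how many TAZ4SA-named and how many EV-named lists held a peak in them, with equal numbers of top peaks per list. The red bar is the TAZ4SA-named side (1467 regions), the blue bar the EV-named side (3278 regions), and the tallest bar the 11011 regions in all 4 lists.

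The 4 lists were of unequal strength. TAZ4SA-named replicate 2 was the shortest, with 45.0% of the 48372 peaks of replicate 3, whereas EV-named replicates 1 and 2 held 102009 and 98992. The −log10 p of the last peak admitted was 3.45 in TAZ4SA-named replicate 2, where it ended the list. It was 9.41 in TAZ4SA-named replicate 3, 15.5 in EV-named replicate 1 and 12.7 in EV-named replicate 2, and in these 3 lists the first peak left out had the same value at this precision. Peaks were broader in the EV-named lists, with median widths of 3690.5 and 3007 bp against 740 and 1924 bp. The top peaks of the EV-named lists covered 108 and 88.2 Mb and those of the TAZ4SA-named lists 24.1 and 56.8 Mb. The part of these differences in the counts of each side was not tested.

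The 2 EV-named lists resembled each other more than the 2 TAZ4SA-named lists did. Of the regions in either EV-named list, 79.6% were in both, against 61.7% for the TAZ4SA-named lists. TAZ4SA-named replicate 3 shared 63.0% of regions with EV-named replicate 2, slightly above the share with its own partner. The lists also held regions found in no other of the 4, namely 1701 and 1909 in TAZ4SA-named replicates 2 and 3, and 2372 and 773 in EV-named replicates 1 and 2. The counts of the sides moved when a list was left out. The TAZ4SA-named side had 3435 regions without TAZ4SA-named replicate 2 and 3695 without replicate 3. The EV-named side had 5795 without EV-named replicate 2 and 6510 without TAZ4SA-named replicate 3. The EV-named side was the larger in each of these.

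The best-ranked regions of the TAZ4SA-named side stood near the top by −log10 p in both of its lists. The first was a region of chr5:165778981-165787775. It ranked 340th in TAZ4SA-named replicate 2, with 124 fragments at its summit and a fold of 6.18 over the local background, and 5th in replicate 3, with 250 fragments and a fold of 19.3. In EV-named replicate 1 it ranked 43584th with 37 fragments, and in EV-named replicate 2 it ranked 21785th with 38 fragments, just outside the limit. The local background there was high in all 4 lists, from 9.14 to 19.2 fragments.

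The region at chr20:8991491-8996241 ranked 432nd and 137th in the TAZ4SA-named lists, with 61 and 120 summit fragments. In the EV-named lists it ranked 53783rd and 30903rd, with 14 and 15 fragments. The region at chr11:126859433-126869625 ranked 343rd and 463rd on its own side, with 73 and 93 fragments, and 29584th and 22989th on the other, with 22 and 20. The region at chr5:73056594-73063051 ranked 356th and 1250th, with 69 and 95 fragments, against 24185th and 24919th, with 28 and 22 fragments. The fragment counts at these 3 regions were higher in the TAZ4SA-named lists, a difference that the choice by rank and presence favours.

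The other 6 of the 10 best-ranked regions lay at chr7:32153100-32155536, chr6:152809410-152819308, chr3:100752090-100758870, chr2:36563404-36567862, chr9:16364959-16371719 and chr20:24650798-24656114. Over all 10, ranks ran from 340 to 3023 in TAZ4SA-named replicate 2 and from 5 to 3011 in replicate 3. The full list of EV-named replicate 1 held 9 of them, at ranks from 21980 to 69306, and that of EV-named replicate 2 held 10, at ranks from 21785 to 48984. Several lay just past the limit, such as the region on chromosome 3 at ranks 21980 and 24395, whereas the region on chromosome 20 from 24650798 to 24656114 had no peak in EV-named replicate 1.

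The EV-named side showed the opposite order of ranks. Its first region, at chr20:42542174-42546859, ranked 1661st in EV-named replicate 1 with 139 summit fragments and 2033rd in replicate 2 with 92. TAZ4SA-named replicate 3 held it at rank 29077 with 17 fragments, and TAZ4SA-named replicate 2 held no peak there. The region at chr8:107281456-107285324 ranked 1811th and 2495th, with 122 and 72 fragments, and stood at rank 25987 with 17 fragments in TAZ4SA-named replicate 3. The region at chr20:51587642-51606100 ranked 2514th and 1680th, with 120 and 86 fragments, and was in neither full TAZ4SA-named list.

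The other 7 of its 10 best-ranked regions lay at chr16:65442150-65455515, chr7:151099233-151108494, chr20:20871013-20879650, chr20:39313445-39319258, chr12:115537448-115550063, chr8:61820752-61825663 and chr2:204512618-204517433. Over all 10, ranks ran from 1599 to 4577 in EV-named replicate 1 and from 1680 to 3916 in replicate 2. TAZ4SA-named replicate 3 held 8 of the 10, from rank 22047 to rank 42598 and with 11 to 18 summit fragments.

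**Figure D2:**
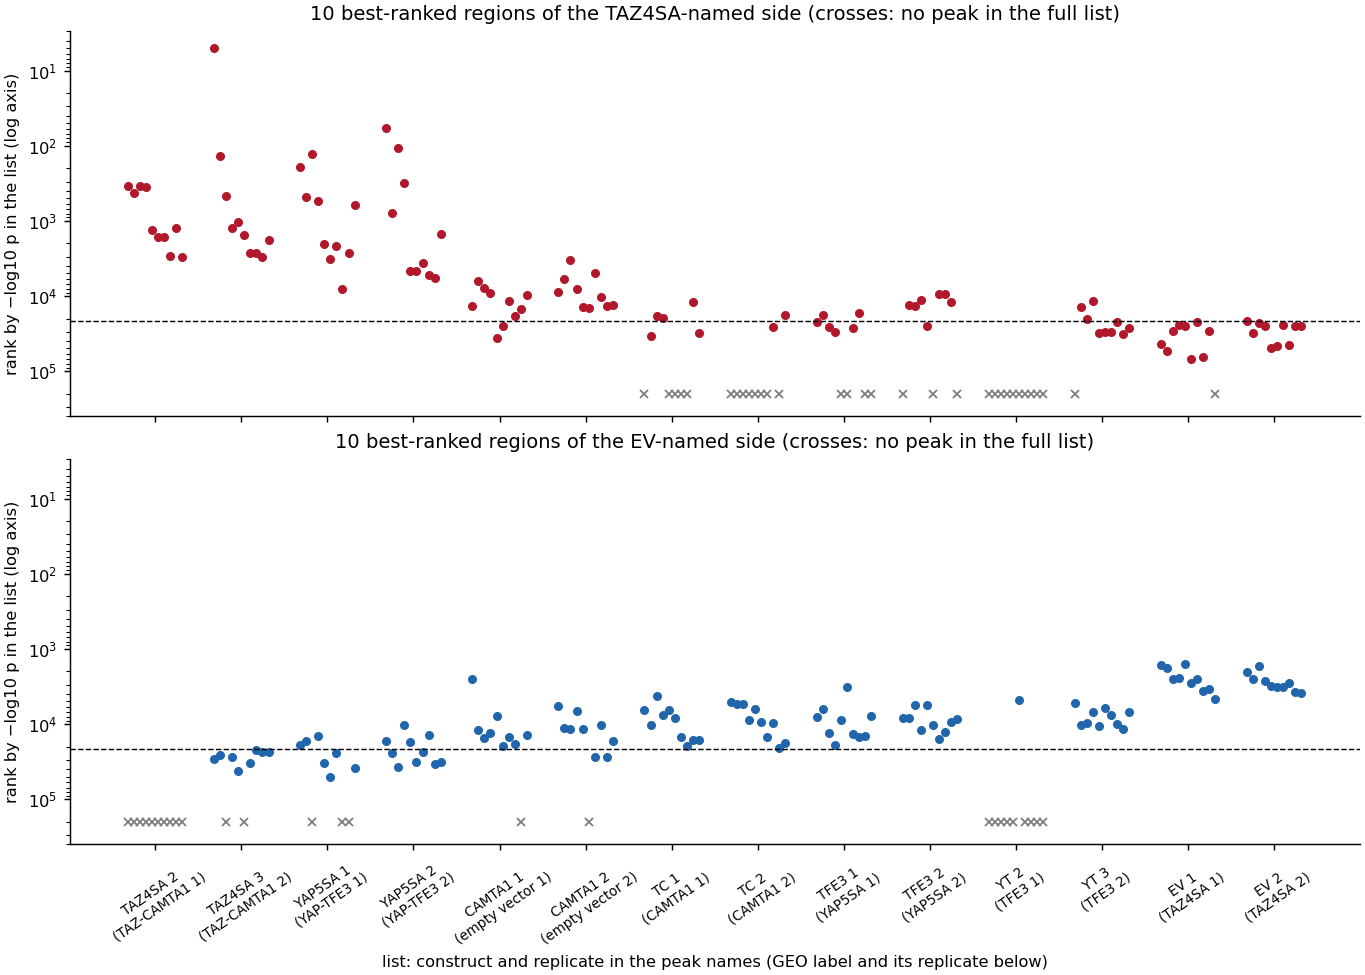
Rank by −log10 p (log axis, best at the top) of the 10 best-ranked regions of the TAZ4SA-named side (upper panel) and the EV-named side (lower panel) in each of the 14 full lists, with 1 point per region. The dashed line is the limit of the top peaks and crosses are regions without a peak. The 10 TAZ4SA-named regions are also among the top peaks of both YAP5SA-named lists and of CAMTA1-named replicate 2, and 8 are among those of CAMTA1-named replicate 1. The 10 EV-named regions are among the top peaks of both TC-named lists, both TFE3-named lists and YT-named replicate 3.

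As a whole, side regions were of middling strength in their own lists. The median rank of the 1467 regions of the TAZ4SA-named side was 12011 in replicate 2 and 13966 in replicate 3. For the 3278 regions of the EV-named side it was 14939 in replicate 1 and 16344.5 in replicate 2. Regions in all 4 lists had median ranks of 6063 to 6730. Among the best 5000 peaks of their list were 10.1% and 3.89% of the TAZ4SA-named side, and 1.16% and 0.488% of the EV-named side. The median side region had 16 and 24 summit fragments in the TAZ4SA-named lists and 37 and 24 in the EV-named lists.

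Most regions of the TAZ4SA-named side were still peaks lower in the other side's lists. In the full EV-named lists, 74.7% of the regions of the TAZ4SA-named side had a peak in replicate 1 and 77.6% in replicate 2, with 68.4% in both and 83.8% in either. Where present, their median ranks were 35179.5 and 33867. The better of the 2 ranks was at most 25000 for 22.8% of the side, so part of the side lay close to the limit. A set of 237 regions (16.2%) had no peak in either EV-named list. Of these, 84.0% and 70.5% were among the top peaks of YAP5SA-named replicates 1 and 2, and at most 13.5% in any of the other 8 lists outside the comparison.

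For the EV-named side, 63.3% of regions had a peak in the full list of TAZ4SA-named replicate 3, at a median rank of 28772. The list of TAZ4SA-named replicate 2 could not add any, because its top peaks are its full list. That left 1202 regions (36.7%) of the EV-named side without a peak in either TAZ4SA-named list. The 36.7% and the 16.2% come from lists with unequal numbers of peaks, and the part of this in the 2 shares was not tested. With 10000 top peaks per list, 97.1% of the TAZ4SA-named side and 97.2% of the EV-named side had a peak in a full list of the other. Cells were processed as whole cultures, and fewer acetylated cells and less acetylation per cell cannot be told apart.

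The 10 lists outside the comparison did not take part in the choice of regions. Among their top peaks, cut at the same number, the YAP5SA-named lists, which GEO labels YAP_TFE3, held 87.7% (replicate 1) and 77.9% (replicate 2) of the TAZ4SA-named side. Over all 27725 regions they held 62.9% and 59.2%, and the other 7 lists of full length held 52.2% to 60.8%. The CAMTA1-named lists, labelled empty vector, held 30.0% and 39.7%. The TC-named lists, where TC is the study's abbreviation for TAZ-CAMTA1 and the label is CAMTA1, held 18.3% and 8.38%. The TFE3-named lists, labelled YAP5SA, held 8.52% and 17.8%. Of the YT-named lists (YAP-TFE3 by the study's abbreviation, TFE3 by label), replicate 3 held 16.2% and replicate 2, with 5721 peaks in all, held 0.341%. The lowest YAP5SA-named share was thus above the highest share of any other list outside the comparison.

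For the EV-named side the order was turned. The YAP5SA-named lists held 16.6% and 16.6% of its regions, below all other lists apart from the short YT-named replicate 2, which held 2.20%. The TFE3-named lists held 52.4% and 39.9%, the TC-named lists 46.1% and 33.1%, YT-named replicate 3 44.4%, and the CAMTA1-named lists 32.5% and 34.6%. For comparison, regions in all 4 lists were held by 90.1% to 96.3% in the 9 lists of full length. Without TAZ4SA-named replicate 3 the YAP5SA-named lists held at most 38.6% of the then 6510 regions of the EV-named side, and the other 7 lists of full length 48.0% to 63.1%. No test of these shares was made, since regions of 1 list are not replicates, and the pattern was noticed in the data.

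Under the peak names, the lists of active TAZ thus shared their side with the lists of active YAP. Under the labels, the sharing was between TAZ-CAMTA1 and YAP-TFE3. Both YAP5SA-named lists held 1091 regions of the TAZ4SA-named side among their top peaks (74.4%), and 414 (28.2%) were there and in none of the other 8 lists. Over all 27725 regions these shares were 53.5% and 3.61%. On the EV-named side 247 regions (7.54%) were in both YAP5SA-named lists, and 8 were there and in none of the other 8. Just 90 regions of the TAZ4SA-named side (6.13%) and 663 of the EV-named side (20.2%) were in the top peaks of none of the 10 lists, against 14.7% of all regions.

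**Figure D3:**
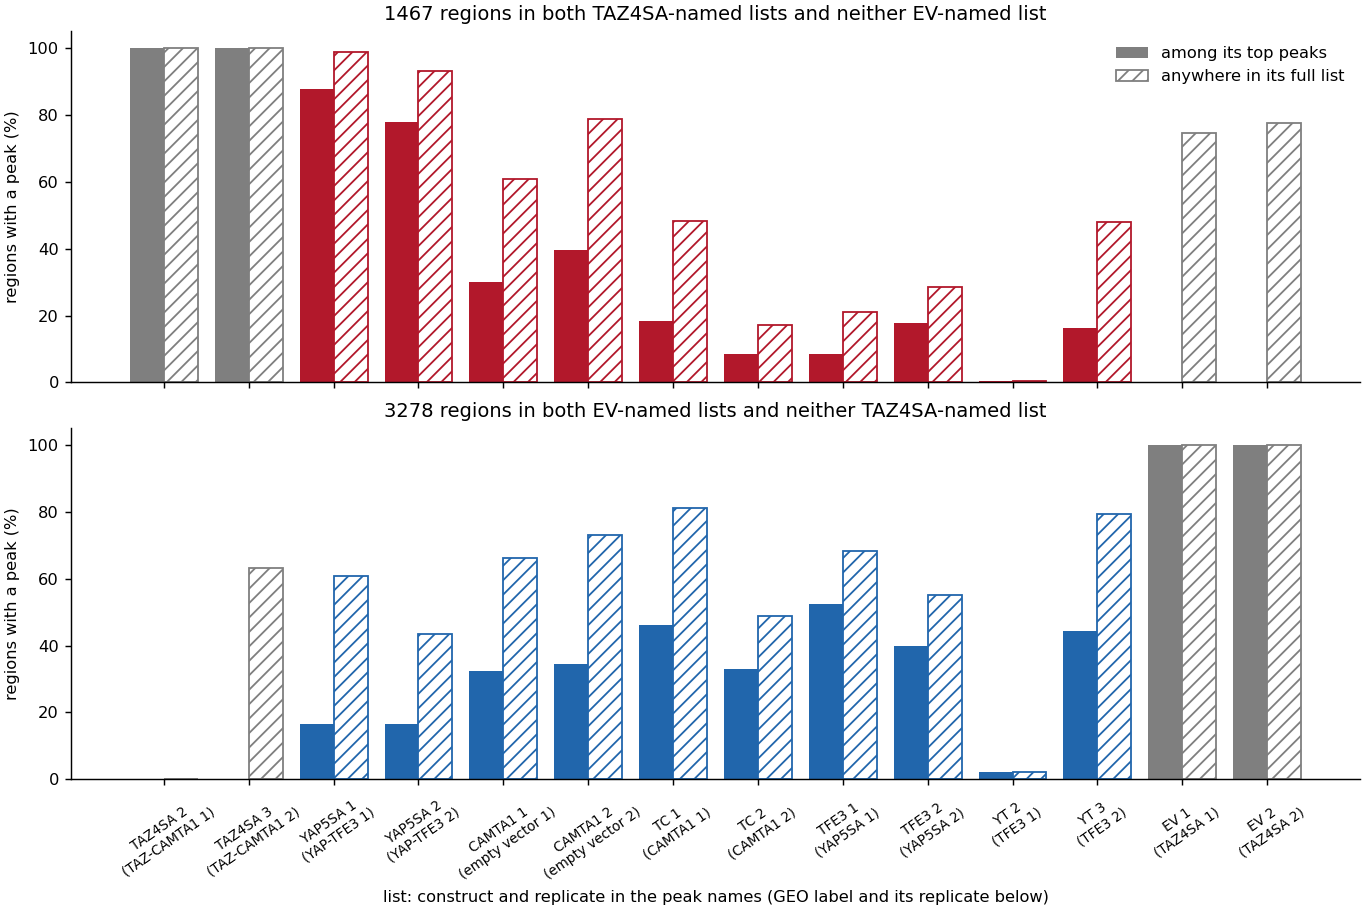
Share of the regions of the TAZ4SA-named side (upper panel, n = 1467) and the EV-named side (lower panel, n = 3278) with a peak in each of the 14 lists, among its top peaks (filled bars) and anywhere in its full list (hatched bars). Grey marks the 4 lists that set the sides. In the upper panel the filled bars of the YAP5SA-named lists reach 87.7% and 77.9%, and in the lower panel both stand at 16.6%.

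The shares were larger for the best-ranked regions of either side than for its weakest, in the YAP5SA-named lists and in the 7 others of full length. Of the 241 regions of the TAZ4SA-named side whose weaker rank was 10000 or better, 99.2% and 96.3% were in the top peaks of YAP5SA-named replicates 1 and 2. The shares were 94.0% and 86.5% for the 415 regions with a weaker rank from there to 15000, and 81.1% and 68.1% for the 811 below that. In CAMTA1-named replicate 2 the shares were 68.5%, 41.0% and 30.6%, a steeper change. The shares of the strongest regions lay between 10.8% and 68.5% in the 7 other lists of full length. On the EV-named side, 165 regions had a weaker rank of 10000 or better, and 69.7% to 89.7% of them were in the top peaks of the 7 lists, against 30.3% and 37.6% in the YAP5SA-named lists. For the 2285 weakest regions of that side the YAP5SA-named shares were 14.3% and 12.8%.

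The gap between the YAP5SA-named lists and the other 7 was also seen with other settings. With 10000 top peaks per list the YAP5SA-named lists held 80.4% and 87.6% of the 1078 regions of the TAZ4SA-named side, and the other 7 lists 15.5% to 45.2%. With peaks ranked by fold the YAP5SA-named shares were 75.9% and 85.3% and the others 9.21% to 39.5%. The gap narrowed but stayed when a TAZ4SA-named list was left out. Without replicate 3 the YAP5SA-named lists held 49.1% and 63.3% and the others 5.06% to 25.1%. These alternatives were chosen after seeing the data.

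Which side had the wider regions depended on the lists and intervals used. The median width of the TAZ4SA-named side was 2354 bp (quartiles 1519 and 3505.5 bp), with an SD of 1054 bp between the median lengths covered in the 2 lists. The median of the EV-named side was 3454 bp (quartiles 2153.25 and 5306.5 bp), with an SD of 716 bp between its lists. The difference of the sides was about that spread. Regions in all 4 lists had a median of 5165 bp. Against the peaks of their own list, side regions of TAZ4SA-named replicates 2 and 3 were covered over a median of 801 and 2292 bp, where the median peak had 740 and 1924 bp. In EV-named replicates 1 and 2 they were covered over 3253 and 2241 bp, where the median peak had 3690.5 and 3007 bp. These lengths add up all peaks of a list in a region, and 81.7% of the regions of the TAZ4SA-named side had 1 peak in replicate 2. The median of the TAZ4SA-named side was 520 bp without TAZ4SA-named replicate 3 and 1515 bp without replicate 2. With 10000 top peaks the medians of the TAZ4SA-named and EV-named sides were 4356 and 4526 bp. The direction turned without EV-named replicate 1, at 2316 and 2015 bp, with full lists, at 1199 and 1143 bp, and with intervals of 500 bp both ways from each summit, at 1252.5 and 1103 bp.

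Chromosomes did not share the sides evenly. Over the genome there were 2.23 regions of the EV-named side for each region of the TAZ4SA-named side. On chromosome 19, which is rich in genes, the EV-named side had 182 regions and the TAZ4SA-named side 24, a ratio of 7.58. It held 5.55% of the EV-named side and 1.64% of the TAZ4SA-named side, against 4.64% of all regions. On chromosome 20 the numbers were 148 and 35, on chromosome 22 they were 76 and 21, and on chromosome 17 they were 177 and 52. Of the EV-named side, the TAZ4SA-named side and all regions, chromosome 20 held 4.51%, 2.39% and 3.42%. For chromosome 22 these shares were 2.32%, 1.43% and 2.23%, and for chromosome 17 they were 5.40%, 3.54% and 4.86%. Ratios were lowest on chromosome 21, with 28 and 24 regions, chromosome 4, with 93 and 67, and chromosome 13, with 59 and 41. In the same order, the shares were 0.854%, 1.64% and 1.16% for chromosome 21 and 2.84%, 4.57% and 3.63% for chromosome 4. They were 1.80%, 2.79% and 1.84% for chromosome 13. Chromosome 19 took 5.26% and 5.31% of the top peaks of the EV-named lists, and 3.81% and 4.70% of those of TAZ4SA-named replicates 2 and 3.

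The share of side regions with a neighbour of their own kind was above that of all regions, as a description without a test. Of the TAZ4SA-named side, 34.8% had another region of that side within 100 kb, against 16.4% of all 27725 regions. A region of the EV-named side lay within this distance of 19.0% of them, against 35.8% of all regions. Of the EV-named side, 50.1% had such a neighbour of its own kind and 9.82% one of the TAZ4SA-named side, against the same 35.8% and 16.4%. The densest megabase of each side was picked after seeing the values. That of the TAZ4SA-named side was on chromosome 17 from 39058504 to 39561720, where 13 of 18 regions were of that side and 0 of the EV-named side. All 13 had a peak in the full list of both YAP5SA-named lists, and 12 and 9 were among their top peaks, against at most 3 in the top peaks of any other list outside the comparison. The EV-named lists held 4 and 7 of the 13 in full. That of the EV-named side was on chromosome 10 from 29022661 to 29979154, with 18 of its 27 regions. There the YAP5SA-named lists held 1 and 3 of the 18 among their top peaks, and the 7 other lists of full length held 3 to 9, so the YAP5SA-named lists did not stand apart.

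The 11011 regions in all 4 lists have a value in every list, so their strength could be compared. They were still chosen by presence among the top peaks of each list. The last peak admitted had a −log10 p of 3.45 and 9.41 in TAZ4SA-named replicates 2 and 3. It was 15.5 and 12.7 in EV-named replicates 1 and 2. A region weaker than the limit of any list could not enter, which bounds the differences that could be seen. Both TAZ4SA-named ranks were better than both EV-named ranks in 2453 of the 11011 regions (22.3%), and both EV-named ranks were better in 3422 (31.1%). Rank order agreed most within the EV-named side, where Spearman's rho across these regions was 0.914, as a description over regions of shared libraries. It was 0.660 within the TAZ4SA-named side and 0.667 and 0.705 between TAZ4SA-named replicate 3 and the EV-named lists. TAZ4SA-named replicate 2 was farther from them, at 0.471 and 0.513.

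The fold over background at the summit of each region was then tested with limma on the log2 scale, after centring each list on its median. Its median over these regions was 5.63 and 11.7 in TAZ4SA-named replicates 2 and 3, and 20.5 and 17.5 in EV-named replicates 1 and 2. At an adjusted p below 0.05, 368 regions (3.34%) were higher in the TAZ4SA-named lists and 59 (0.536%) were higher in the EV-named lists, relative to those medians. The median log2 difference of called regions was 1.40 and -1.28, and 0.00 over all tested. Called regions were wide, with medians of 6489 and 9060 bp against 5104.5 bp for the rest.

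The number of calls rested on the list length, the scaling and single libraries. With 10000 top peaks per list, 20 of 5260 regions were called higher in the TAZ4SA-named lists and 0 in the EV-named lists. With full lists the calls were 1131 and 260 of 13756 regions. The log2 fold had an SD over regions of 0.603 and 0.601 in the TAZ4SA-named lists and 0.745 and 0.663 in the EV-named lists. Quantile normalisation, which makes the lists alike in spread, left 14 calls higher in the TAZ4SA-named lists and 0 higher in the EV-named lists by limma, with 1062 and 814 regions at an unadjusted p below 0.05. The numbers were 161 and 73 without TAZ4SA-named replicate 2, and 909 and 511 without TAZ4SA-named replicate 3. They were 22 and 0 without EV-named replicate 1 (795 and 288 at an unadjusted p below 0.05), and 238 and 10 without EV-named replicate 2. In these fits the lone list of a side was assumed to vary like the lists of the other. With the label's replicate number as a block the numbers were 505 and 104.

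**Figure D4:**
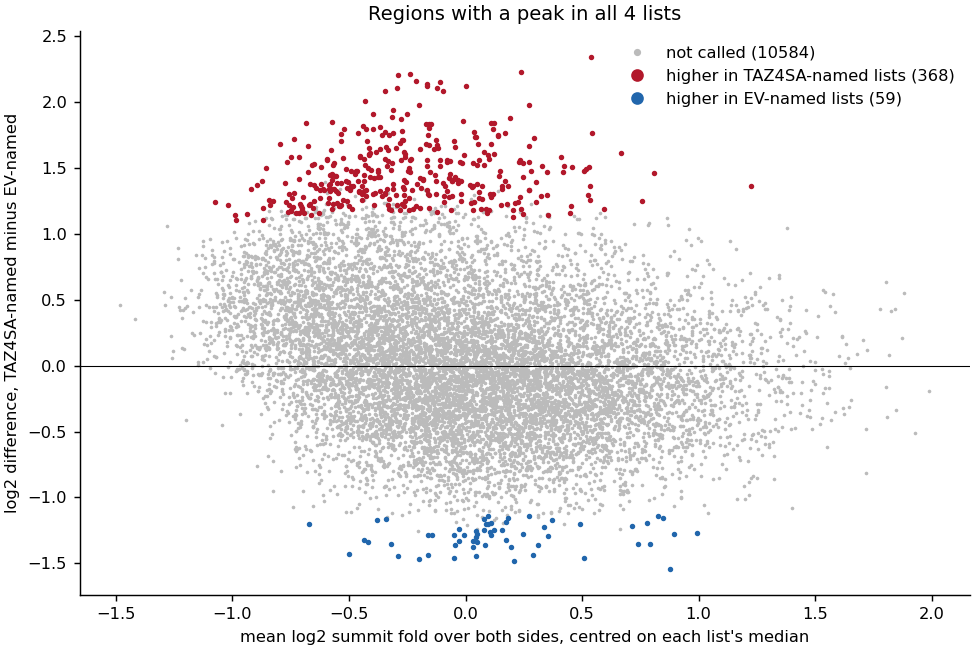
Log2 difference in summit fold (TAZ4SA-named minus EV-named, vertical axis) against the mean log2 fold of both sides (horizontal axis), each list centred on its median, with 1 point for each of the 11011 regions in all 4 lists. Red points are the 368 regions called higher in the TAZ4SA-named lists and blue points the 59 called higher in the EV-named lists.

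The largest increase in the TAZ4SA-named lists was at chr19:23728546-23740256. Its fold was 21.2 and 33.2 in TAZ4SA-named replicates 2 and 3, and 12.1 and 12.3 in EV-named replicates 1 and 2. On the centred log2 scale the difference was 2.34 ± 0.321 (SE, limma adjusted p = 0.0041). The region ranked 159th and 238th on the first side and 12763rd and 10738th on the other, and 396th and 363rd in the YAP5SA-named lists.

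The second was at chr5:148287489-148296398, with folds of 15.4 and 27.8 against 11.2 and 9.48, a log2 difference of 2.23 ± 0.316 (limma adjusted p = 0.0041). It ranked 555th and 521st in the TAZ4SA-named lists, 14232nd and 15007th in the EV-named lists, and 491st and 1190th in the YAP5SA-named lists. The other 3 of the 5 largest lay at chr1:209676703-209680759, chr11:5380940-5390871 and chr13:114597062-114601920, with log2 differences from 2.16 to 2.21. Of these, the region on chromosome 1 was the weakest in the YAP5SA-named lists, at ranks 10963 and 5225, and had no peak in either TC-named list.

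The largest increase in the EV-named lists was at chr2:12851875-12864905, with folds of 68.3 and 51.6 in EV-named replicates 1 and 2 and of 4.06 and 18.8 in TAZ4SA-named replicates 2 and 3. The log2 difference was -1.54 ± 0.363 (limma adjusted p = 0.0235), and the TAZ4SA-named lists differed widely from each other. The region at chr9:5838995-5846533 had folds of 43.6 and 30.7 against 3.62 and 8.69, a difference of -1.48 ± 0.320 (limma adjusted p = 0.0156). The other 3 of the 5 largest lay at chr9:136323796-136327091, chr20:56700020-56710245 and chr17:76114591-76132435. The log2 difference was -1.46 at each.

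The lists outside the comparison again divided in the same way. The 368 regions called higher in the TAZ4SA-named lists had median ranks of 2689 and 3516 in the YAP5SA-named lists, near the 2489 and 3804 of the TAZ4SA-named lists themselves. In the other 7 lists of full length their median ranks ran from 7099 in CAMTA1-named replicate 2 to 13334 in TFE3-named replicate 1. The 59 regions called higher in the EV-named lists had median ranks of 10326 and 8591 in the YAP5SA-named lists and from 3397 to 5240 in the 7 others. Among regions not called, the YAP5SA-named lists had medians of 6780 and 6632.5 and the 7 others lay between 5878 and 6054.

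**Figure D5:**
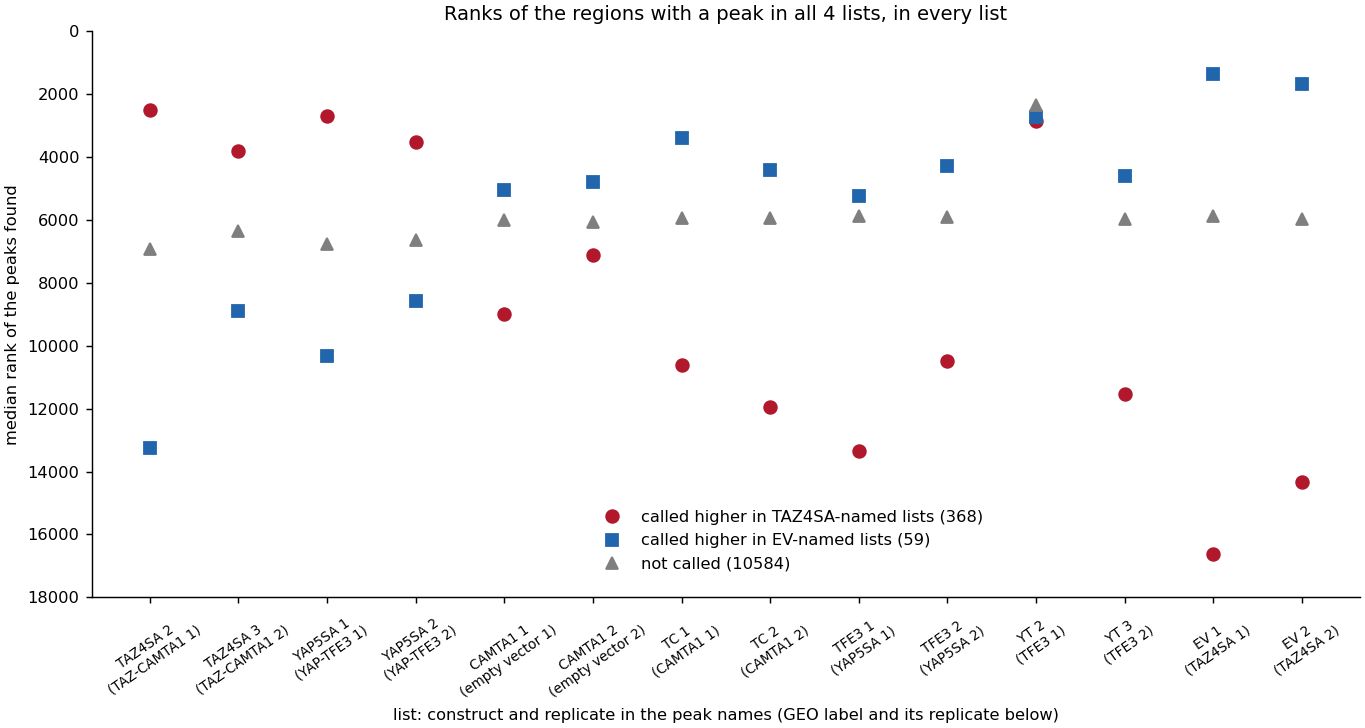
Median rank (best at the top) in each of the 14 full lists of the regions in all 4 lists, split by the limma call, over the regions with a peak in that list. Regions called higher in the TAZ4SA-named lists (circles) rank best, among lists of full length, in the TAZ4SA-named and YAP5SA-named lists, and regions called higher in the EV-named lists (squares) rank best in the EV-named lists. YT-named replicate 2 has 5721 peaks, and its ranks cannot be larger.

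The same division was seen with ranks in place of the limma test, but this is not separate support. The rank sets come from the same regions and lists, and they hold all 368 and all 59 called regions. The 2453 regions that both TAZ4SA-named lists ranked better had median ranks of 3827 and 4475 in the YAP5SA-named lists and from 6662 to 9228.5 in the 7 others. The 3422 regions that both EV-named lists ranked better had median ranks of 8893 and 8086 in the YAP5SA-named lists and from 5405 to 6057 in the 7 others. In TAZ4SA-named replicates 2 and 3 the 2 sets had medians of 3876 and 4762, and of 9913 and 7852.5.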

How the data were processed

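H3K27ac ChIP-seq reads were, according to the methods, trimmed by the authors and mapped to GRCh37/hg19 using BWA-MEM. Reads with several mapping places and those in greylisted regions were dropped before MACS2 called peaks from fragments of paired reads. The submitters' processing notes name bcl2fastq, BWA and MACS2. Each deposited line gives an interval, a summit, a fold enrichment (a ratio over local background), and a −log10 p-value and −log10 q-value, all as MACS2 wrote them for the authors. The methods state pooled replicates and a looser q limit, but these lists are separate per library, and the lowest −log10 q of the 4 was 1.30, a q of 0.05. Read totals and the 14 inputs were not used here.

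Peaks were ranked by −log10 p (ties by fold, then position). A region belonged to a list at an overlap of at least 1 bp, and took the best-ranked peak there. Summit fragments and background were solved from fold and p, and in every list at least 99.995% of summit counts were whole within 0.05. Sequencing depth was not measured directly. For regions in all 4 lists, log2 fold was median-centred and fitted with limma 3.58.1 (eBayes with trend, Benjamini-Hochberg over all 11011 regions), since the methods state no test between these lists. The code was tested on simulated data. The named regions are the 10 of each side with the best weaker rank, and the 5 largest called differences each way. Regions were chosen and alternatives fixed with earlier results of these data known.

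Promoters, genes, marker lists and motifs were planned only for a genome of the lists' build. The reference at hand is of build 38, coordinates were not converted, and these are not reported here. Python 3.11.15, pandas 2.3.3, numpy 2.4.6, scipy 1.17.1, matplotlib 3.10.9 and R 4.3.3 were used.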

Additional observations from a re-analysis of the deposited data

How the results depend on the processing

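Counts, widths and shares stayed within 1.5 times or the spread between lists with peaks ranked by fold and on chromosomes 1 to 22 and X, and so did counts and widths with peaks within 1000 bp stitched. The limma counts did so on those chromosomes, without a trend, and on −log10 p. Values below are given for the TAZ4SA-named side first, then the EV-named side. With 10000 top peaks the sides had 1078 and 1327 regions, widths were 4356 and 4526 bp, the share of the TAZ4SA-named side in the full EV-named lists was 97.1% and that of the EV-named side in the full TAZ4SA-named lists 97.2%, and limma called 20 and 0 of 5260 regions (402 and 251 at an unadjusted p below 0.05). With full lists there were 442 and 24114 regions, widths of 1199 and 1143 bp, and 1131 and 260 calls. With summits extended by 500 bp both ways, the sides had 2380 and 3323 regions and widths were 1252.5 and 1103 bp. With peaks required to cover 50% of a region, there were 596 and 9224 regions. Found in both full lists of the other side were 68.4% and 0%, the latter because the top peaks of TAZ4SA-named replicate 2 are its full list. Quantile normalisation left 14 and 0 calls. The cause was not tested.

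Leaving out each list in turn, the sides had 1789 to 3695 and 3817 to 6510 regions, and widths were 520 to 2501 and 2015 to 3509 bp, the order turning without EV-named replicate 1 (2316 and 2015 bp). The shares in the other side's full lists were 69.7% to 81.5% and 0% to 67.0%. There were 22 to 909 and 0 to 511 calls. With the replicate block there were 505 and 104 calls. The labels share replicate numbers but do not say that these pair the lists, and deviations of same-numbered lists correlated at -0.05, so the crossed pairing was not run. Other windows for start sites and motifs were not run, for want of a genome of the lists' build. The strength of TAZ4SA-named replicate 2 limits what can be said of weak regions.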
